A study of Mus musculus with 13 samples.

Results

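The elastic fibre and lysyl oxidase genes measured here were elastin (Eln), fibrillin-1 (Fbn1), the fibulins Fbln1, Fbln2 and Fbln5, and the lysyl oxidases Lox, Loxl1, Loxl2, Loxl3 and Loxl4. They were taken by name from the deposited gene table, by a rule that used no measured value, though earlier results of these data were known when they were chosen. All 10 were found among the 48795 genes of the table, of which 30650 had a count in at least 1 of the 13 samples.

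The samples were whole right brain hemispheres of mice collected to see what changes with the ependymoma-like growths of nlsYAP5SA animals. Poly(A) libraries from the bulk RNA of each hemisphere were sequenced on an Illumina HiSeq, and each sample was a separate animal. All animals had a C57BL/6J background and were taken at postnatal day 11, after olfactory bulbs and cerebellum had been removed. The 5 control animals had the genotype NexCre -/- YAP5SAnls +/-, so they carried the silent transgene without Cre. The 5 nlsYAP5SA animals were NexCre +/- YAP5SAnls +/- and expressed, after recombination, a nuclear form of YAP with serine-to-alanine changes at its LATS phosphorylation sites. Cre came from the Neurod6 (NEX) locus, so the transgene was switched on by recombination in the NEX-Cre lineage, which holds pyramidal neurons and, by the account of the study, some cells of the ventricular zone, while the bulk RNA came from every cell of the hemisphere. The 3 C57BL/6 animals were age-matched wild types (genotype WT) with neither allele, collected in addition to these litters. Controls and nlsYAP5SA animals were littermates from a pair of matings, the litter of each animal was not given, and sex was not recorded.

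Elastic fibres are built outside the cell. Tropoelastin, the soluble product of Eln, is laid onto a scaffold of fibrillin microfibrils with the help of fibulins, and lysyl oxidases then oxidise lysines of elastin and collagens so that the chains become covalently cross-linked. In the brain, elastin and its cross-linking enzymes are best known from the walls of arteries and from the meninges, and the parenchyma itself holds few elastic fibres. YAP works in the nucleus as a coactivator of TEAD transcription factors, and genes of the extracellular matrix are among those it is known to act on.

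The table held between 21380744 and 25524349 estimated counts in a control sample (median 24211508), between 20871566 and 23586887 in an nlsYAP5SA sample (median 21851691) and between 21541836 and 24392197 in a C57BL/6 sample (median 22788250). Levels are given as CPM, the counts relative to a scaled library size, as mean ± SD over the animals of a group. Yap1, whose entry may also have taken reads of the transgene, stood at 20.7 ± 0.964 CPM in control (n = 5), 24.2 ± 1.52 CPM in nlsYAP5SA (n = 5) and 20.5 ± 1.08 CPM in C57BL/6 samples (n = 3). Its log2 fold change between nlsYAP5SA and control was 0.23 ± 0.06 (SE, adjusted p = 0.0361 in edgeR's quasi-likelihood F-test, Benjamini-Hochberg adjusted), higher in 5 of 5 nlsYAP5SA samples than in any control, and it no longer passed an adjusted p of 0.05 in 16 of 22 alternative settings.

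The groups also differed in their Y-linked RNA. The summed level of 4 Y-linked genes was 91.0, 114, 129, 114 and 124 CPM in control replicates 1 to 5, and 0.0904, 0.0942, 130, 135 and 0.0937 CPM in nlsYAP5SA replicates 1 to 5. In C57BL/6 replicates 1 to 3 it was 119, 0.0 and 143 CPM. Y-linked RNA was therefore present at more than 10 CPM in 5 of 5 controls, in 2 of 5 nlsYAP5SA samples (replicates 3 and 4) and in 2 of 3 C57BL/6 samples. For this reason the differences between nlsYAP5SA and control, apart from that of Loxl4, were also fitted with the Y-linked level as a covariate, and between the 2 nlsYAP5SA and 5 control samples with Y-linked RNA alone, the latter chosen after the data were seen. What these fits did to the calls is given with the results below.

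The comparison of nlsYAP5SA with control asked which genes differ where the transgene was switched on. Of the 9 members that passed the filter on low counts, 6 were called higher in nlsYAP5SA at an adjusted p of 0.05 or less and 0 lower, while 1761 of 16315 genes tested were called (10.8%), 1200 of them higher (7.36%) and 561 lower (3.44%). The 6 were Lox, Loxl2, Loxl1, Fbn1, Eln and Fbln5. The median log2 fold change of the 9 was 0.74, beside a median of −0.01 for all genes tested. In 4 of the 9 (Fbn1, Lox, Loxl1 and Loxl2) every nlsYAP5SA sample lay above every control sample, as was the case for 1060 genes of those tested (6.5%), and the untested Loxl4 showed the same. Because each library mixes all cells of a hemisphere, more cells that make a transcript and more transcript per cell cannot be told apart in any of these values.

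**Figure D1:**
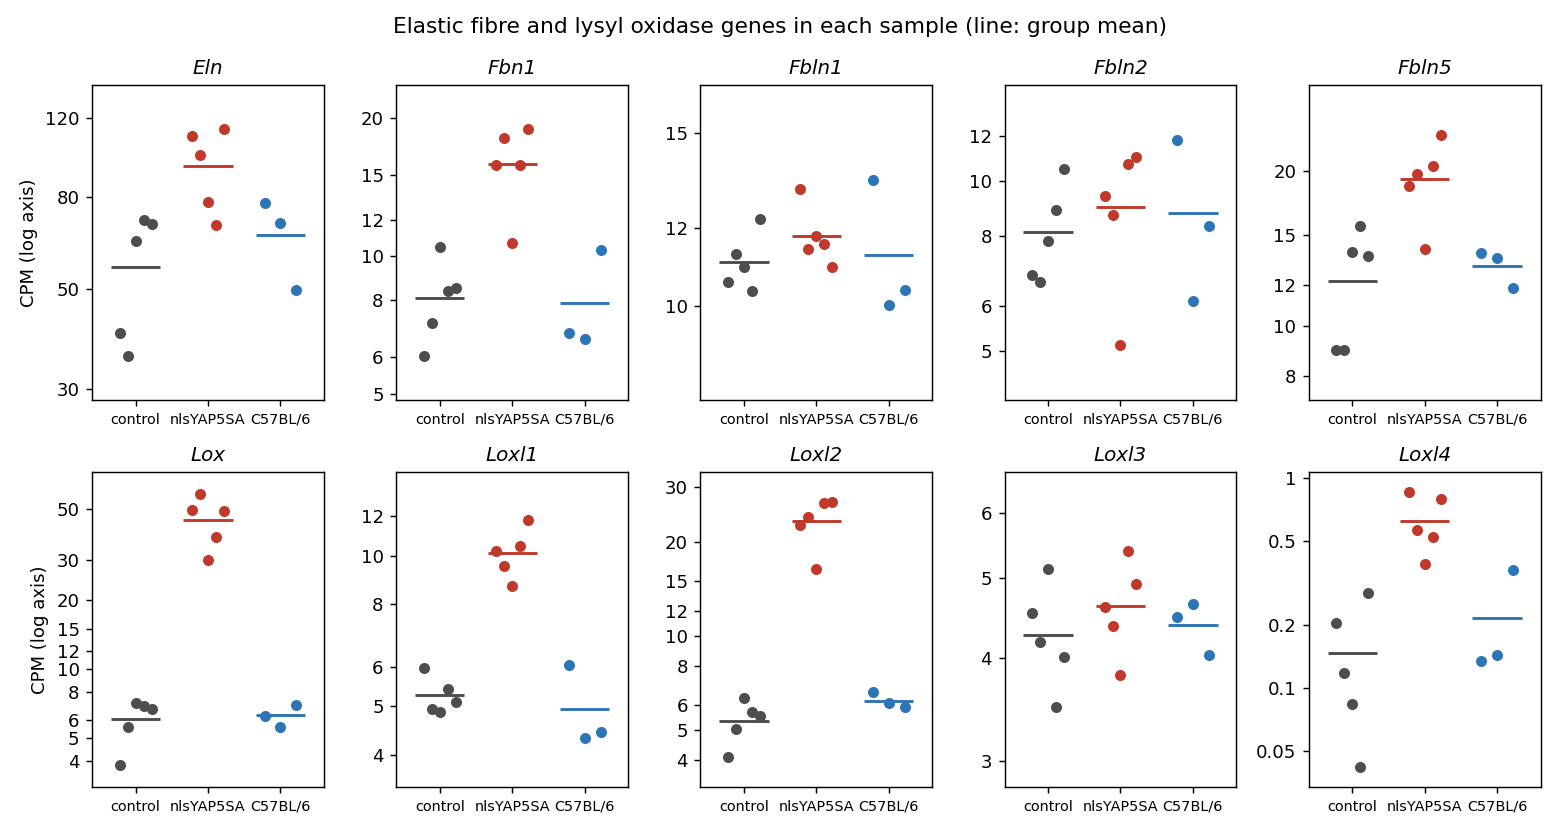
Level of each member in CPM (log axis) in every control, nlsYAP5SA and C57BL/6 sample, with 1 point for each animal and a line at the group mean. The nlsYAP5SA points of Lox lie between 29.9 and 58.3 CPM, above every control and C57BL/6 point, while those of Fbln1, Fbln2 and Loxl3 overlap with the other groups.

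Eln encodes tropoelastin, the stretchable core of the fibre. Control replicates 1 to 5 held 40.0, 35.5, 64.0, 71.3 and 69.8 CPM of Eln, nlsYAP5SA replicates 1 to 5 held 109, 99.1, 78.2, 69.3 and 113 CPM, and C57BL/6 replicates 1 to 3 held 77.4, 70.3 and 49.7 CPM. The controls fell into a low pair (replicates 1 and 2) and 3 higher samples, and nlsYAP5SA replicates 3 and 4, the animals with Y-linked RNA, lay lowest in their group, with replicate 4 inside the control range. The group means were 56.1 ± 17.1 CPM in control and 93.9 ± 19.3 CPM in nlsYAP5SA samples. Eln rose by a log2 fold change of 0.74 ± 0.20 (SE, adjusted p = 0.032 in edgeR's quasi-likelihood F-test, Benjamini-Hochberg adjusted). The call was lost in 9 of 22 alternatives, more than for any of the other 5 called members. With the Y-linked covariate the log2 fold change of Eln was 0.43 (edgeR adjusted p = 0.497), and among samples with Y-linked RNA alone it was 0.39 (edgeR adjusted p = 0.707, the highest of 22 alternatives, whose lowest was 0.00321 with DESeq2). Without control replicate 1 or 2 the log2 fold change was 0.65 or 0.62 (edgeR adjusted p = 0.0607 or 0.0606), and without nlsYAP5SA replicate 1, 2 or 5 it was 0.68, 0.72 or 0.66 (edgeR adjusted p = 0.0823, 0.076 or 0.0885). With the level of the choroid plexus transcript Ttr as a covariate it was 0.67 (edgeR adjusted p = 0.093), and with a block for the replicate number 0.77 (edgeR adjusted p = 0.0603). In these fits the value thus moved less than in those for Y-linked RNA.

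Fbn1 encodes fibrillin-1, the main glycoprotein of the microfibrils that carry elastin. Its level was 6.05, 7.12, 10.5, 8.40 and 8.50 CPM in control replicates 1 to 5, 15.8, 18.03, 10.7, 15.8 and 18.9 CPM in nlsYAP5SA replicates 1 to 5, and 6.77, 6.57 and 10.3 CPM in C57BL/6 replicates 1 to 3. The nlsYAP5SA samples were all above the controls, though replicate 3 (10.7 CPM) came within a small margin of the highest control (10.5 CPM). Fbn1 rose from 8.11 ± 1.66 to 15.8 ± 3.20 CPM, for a log2 fold change of 0.96 ± 0.16 (SE, adjusted p = 0.00211 in edgeR's quasi-likelihood F-test, Benjamini-Hochberg adjusted). It lost the call with the Y-linked covariate (0.74, edgeR adjusted p = 0.066) and among samples with Y-linked RNA alone (0.70, edgeR adjusted p = 0.175), the highest of 22 alternatives, and was called in the other 20, down to an adjusted p of 1.07e-06 with DESeq2.

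Of the 3 fibulins, Fbln5 was called and the others were not. Fbln5, which binds elastin and lysyl oxidase-like 1 and tethers tropoelastin to microfibrils, stood at 8.997, 9.003, 13.9, 15.6 and 13.7 CPM in control replicates 1 to 5. In nlsYAP5SA replicates 1 to 5 it stood at 18.7, 19.7, 14.1, 20.4 and 23.4 CPM, and in C57BL/6 replicates 1 to 3 at 13.8, 13.6 and 11.9 CPM. As for Eln, control replicates 1 and 2 were the lowest samples, and nlsYAP5SA replicate 3 was the only sample of its group inside the control range. Fbln5 rose from 12.2 ± 3.05 to 19.3 ± 3.39 CPM, for a log2 fold change of 0.65 ± 0.17 (SE, adjusted p = 0.0263 in edgeR's quasi-likelihood F-test, Benjamini-Hochberg adjusted). The call was lost in 7 of 22 alternatives. With the Y-linked covariate the log2 fold change was 0.52 (edgeR adjusted p = 0.316), and among samples with Y-linked RNA alone it was 0.49 (edgeR adjusted p = 0.519, the highest of the 22, against a lowest of 0.00326 with DESeq2). Leaving out control replicate 2 gave 0.56 (edgeR adjusted p = 0.0611), and leaving out nlsYAP5SA replicate 1, 2, 4 or 5 gave 0.67, 0.65, 0.63 or 0.57 (edgeR adjusted p = 0.0518, 0.0602, 0.0506 or 0.0752).

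Fbln1, a fibulin of basement membranes and elastic fibre cores, spanned 10.4 to 12.3 CPM in control, 11.0 to 13.2 CPM in nlsYAP5SA and 10.02 to 13.4 CPM in C57BL/6 samples. Fbln2, found where elastic fibres meet basement membranes in vessel walls, spanned 6.62 to 10.5 CPM, 5.11 to 11.1 CPM and 6.13 to 11.8 CPM in the same order. The ranges of both genes overlapped in all groups. The log2 fold change between nlsYAP5SA and control was 0.08 ± 0.08 for Fbln1 (SE, adjusted p = 0.544 in edgeR's quasi-likelihood F-test, Benjamini-Hochberg adjusted). For Fbln2 it was 0.15 ± 0.19 (edgeR adjusted p = 0.691), and it ran from −0.04 to 0.29 over the 22 alternatives, in which neither gene was called.

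Lox, the founding lysyl oxidase and a cross-linker of both collagen and elastin, differed by more than any other member. It stood at 3.84, 5.64, 7.13, 6.93 and 6.75 CPM in control replicates 1 to 5, at 49.9, 58.3, 29.9, 37.7 and 49.0 CPM in nlsYAP5SA replicates 1 to 5, and at 6.28, 5.61 and 7.03 CPM in C57BL/6 replicates 1 to 3. The lowest nlsYAP5SA samples, replicates 3 and 4, still lay far above the highest control and C57BL/6 samples, and the C57BL/6 values lay within the control range. Lox rose from 6.06 ± 1.37 to 44.98 ± 11.1 CPM, a 7.42-fold difference with a log2 fold change of 2.89 ± 0.20 (SE, adjusted p = 2.39e-06 in edgeR's quasi-likelihood F-test, Benjamini-Hochberg adjusted). By size of log2 fold change Lox was the 38th highest of the 16315 genes tested. The call held in all 22 alternatives, with log2 fold changes of 2.48 to 3.01. Among samples with Y-linked RNA alone it was 2.48 (edgeR adjusted p = 0.000372, the highest of the 22).

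Loxl2 encodes a lysyl oxidase with scavenger receptor domains that acts on type IV collagen of basement membranes. Control replicates 1 to 5 held 4.09, 5.01, 6.34, 5.71 and 5.53 CPM, nlsYAP5SA replicates 1 to 5 held 22.7, 24.1, 16.4, 26.7 and 27.0 CPM, and C57BL/6 replicates 1 to 3 held 6.59, 6.09 and 5.89 CPM. All nlsYAP5SA samples were well above the rest, replicate 3 being the lowest, and the other groups overlapped. Loxl2 rose from 5.33 ± 0.842 to 23.4 ± 4.31 CPM, a 4.38-fold difference with a log2 fold change of 2.13 ± 0.15 (SE, adjusted p = 2.57e-06 in edgeR's quasi-likelihood F-test, Benjamini-Hochberg adjusted), and ranked 89th of the 16315 genes. It was called in all 22 alternatives (log2 fold changes of 2.01 to 2.24, highest edgeR adjusted p 0.00105).

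Loxl1 encodes the family member most closely tied to elastin, which is brought to tropoelastin by fibulin-5. It stood at 5.97, 4.93, 4.88, 5.42 and 5.10 CPM in control replicates 1 to 5, at 10.2, 9.56, 8.71, 10.5 and 11.8 CPM in nlsYAP5SA replicates 1 to 5, and at 6.05, 4.31 and 4.44 CPM in C57BL/6 replicates 1 to 3. Again the nlsYAP5SA samples lay apart from both other groups, which overlapped, and the spread was narrow within control and within nlsYAP5SA samples. Loxl1 rose from 5.26 ± 0.450 to 10.2 ± 1.15 CPM, for a log2 fold change of 0.94 ± 0.10 (SE, adjusted p = 6.39e-05 in edgeR's quasi-likelihood F-test, Benjamini-Hochberg adjusted). This held in all 22 alternatives (log2 fold changes of 0.86 to 1.02, highest edgeR adjusted p 0.00951).

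Loxl3, a scavenger receptor type lysyl oxidase known for its roles in palate and spine development, spanned 3.48 to 5.13 CPM in control, 3.81 to 5.39 CPM in nlsYAP5SA and 4.04 to 4.65 CPM in C57BL/6 samples. These ranges overlapped throughout. Its log2 fold change between nlsYAP5SA and control was 0.11 ± 0.13 (SE, adjusted p = 0.642 in edgeR's quasi-likelihood F-test, Benjamini-Hochberg adjusted), and it was called in none of the 22 alternatives.

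Loxl4 was the scarcest member, with 1 to 6 counts in a control sample (median 3), 9 to 19 in an nlsYAP5SA sample (median 12) and 3 to 9 in a C57BL/6 sample (median 3). In CPM these were 0.204, 0.117, 0.0834, 0.0420 and 0.283 in control replicates 1 to 5, 0.859, 0.565, 0.390, 0.522 and 0.796 in nlsYAP5SA replicates 1 to 5, and 0.135, 0.144 and 0.363 in C57BL/6 replicates 1 to 3. Every nlsYAP5SA sample was above every control and C57BL/6 sample, but at such counts the size of the difference is poorly known. Loxl4 did not pass the filter on low counts in this comparison, nor in either fit for Y-linked RNA, and nlsYAP5SA replicates 3 and 4, the animals with Y-linked RNA, were the lowest of their group. A 2-sided exact permutation test on log2(CPM + 0.5) gave p = 0.00794, the smallest that 5 against 5 samples allow, for a difference of 0.80. Groups that lie fully apart can give no other p in this test, so it only restates that separation, which 6.5% of the genes tested showed. With no filter, the log2 fold change was 2.07 ± 0.44 (SE, adjusted p = 0.00692 in edgeR's quasi-likelihood F-test, Benjamini-Hochberg adjusted).

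**Figure D2:**
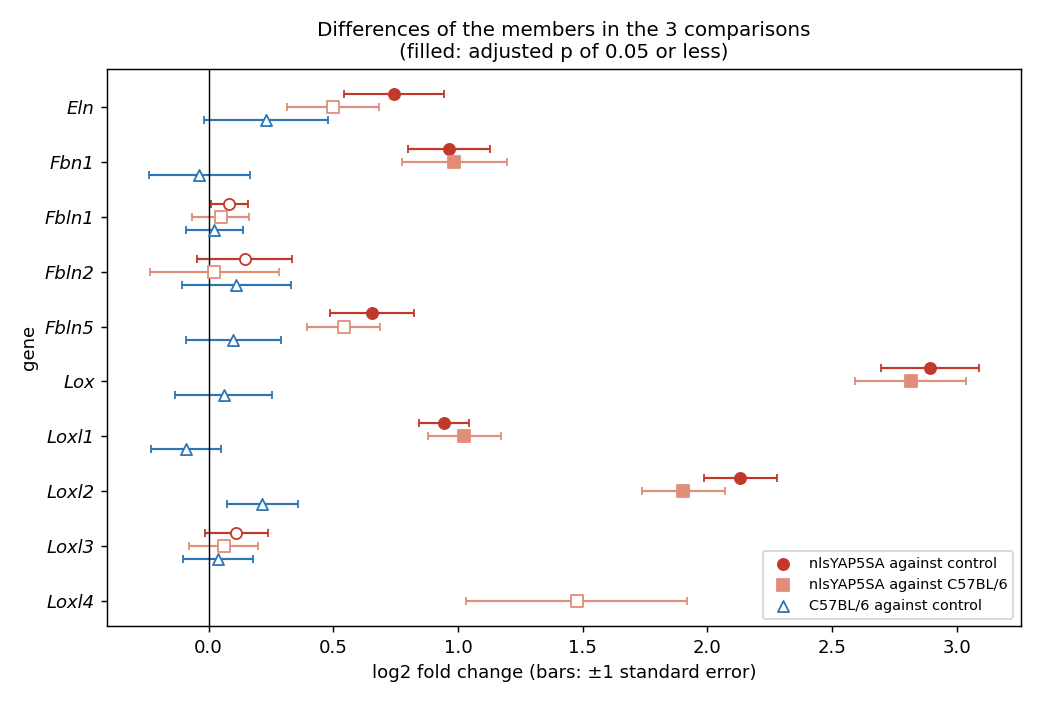
Log2 fold change of each member (x axis) in nlsYAP5SA against control (circles), nlsYAP5SA against C57BL/6 (squares) and C57BL/6 against control (triangles), with bars of 1 SE and filled symbols for an adjusted p of 0.05 or less. Lox (2.89 and 2.82) and Loxl2 (2.13 and 1.90) lie farthest to the right in both nlsYAP5SA comparisons, and no triangle is filled.

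Within nlsYAP5SA, the same animals tended to be low or high for many members. Replicate 3 was the lowest of its group for 8 of the 10 members and replicate 5 the highest for 6. Among controls, replicate 1 was the lowest for 4 members (Fbn1, Fbln5, Lox and Loxl2) and replicate 3 the highest for 4. C57BL/6 replicate 1 was the highest of its group for 6 members.

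Levels of different genes were compared per kilobase of annotated exons. On that scale Eln was the highest member in control samples (6.93 ± 2.11 CPM per kb), followed by Fbln1 (2.54 ± 0.172 CPM per kb) and Fbln5 (1.77 ± 0.441 CPM per kb). Loxl1 (1.595 CPM per kb), Fbln2 (1.28 CPM per kb), Lox (1.27 CPM per kb), Loxl2 (0.987 CPM per kb), Loxl3 (0.928 CPM per kb) and Fbn1 (0.669 CPM per kb) came next, each overlapping with the gene above it, and Loxl4 was last (0.0347 CPM per kb). Of the 9 pairs of neighbours in this order, 3 were apart in range (Eln and Fbln1, Fbln1 and Fbln5, Fbn1 and Loxl4) and 6 overlapped. The C57BL/6 samples gave the same order on that length, from Eln at 8.13 ± 1.77 CPM per kb to Loxl4 at 0.0508 CPM per kb, with 5 pairs of neighbours apart and 4 overlapping.

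In nlsYAP5SA samples the order per kilobase was another. Eln (11.6 ± 2.39 CPM per kb) and Lox (9.41 ± 2.33 CPM per kb) came first with overlapping ranges, then Loxl2 (4.33 ± 0.797 CPM per kb), Loxl1 (3.08 ± 0.348 CPM per kb), Fbln5 (2.79 CPM per kb) and Fbln1 (2.70 CPM per kb). Below them came Fbln2 (1.41 CPM per kb), Fbn1 (1.305 CPM per kb), Loxl3 (1.004 CPM per kb) and Loxl4 (0.149 CPM per kb). The ranges of Lox and Loxl2, of Fbln1 and Fbln2, and of Loxl3 and Loxl4 were apart, and those of the other 6 pairs of neighbours overlapped. Lox thus lay in place 6 of the control order and in place 2 of the nlsYAP5SA order.

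These levels depend on the length taken for each gene. Per kilobase of the longest transcript in place of all annotated exons, Eln stood at 14.6 ± 4.43 CPM per kb in control, 24.4 ± 5.02 CPM per kb in nlsYAP5SA and 17.1 ± 3.73 CPM per kb in C57BL/6 samples, and Lox at 9.49 ± 2.35 CPM per kb in nlsYAP5SA samples, so that the nlsYAP5SA ranges of Eln and Lox no longer overlapped. Eln stayed first in every group, and Lox kept places 6 and 2. On this length Fbln2 came before Loxl1 and Loxl3 before Loxl2 in control, the C57BL/6 order differed from it in Loxl2 and Loxl3, and in nlsYAP5SA samples Fbln5 and Fbln1 came before Loxl1. The ranges of all these neighbours overlapped.

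The lysyl oxidases together summed to 21.1 ± 1.88 CPM in control, 83.8 ± 15 CPM in nlsYAP5SA and 22.0 ± 1.39 CPM in C57BL/6 samples. The lowest nlsYAP5SA sum (59.2 CPM) was above the highest control sum (23.6 CPM). Per kilobase, Lox made up 26.1 ± 4.6% of the family in control and 51.9 ± 5.3% in nlsYAP5SA samples, and the ranges of these shares were apart. The share of Loxl1 was 33.4 ± 4.8% in control and 17.4 ± 2.42% in nlsYAP5SA samples, that of Loxl2 20.4 ± 1.94% and 24.2 ± 2.76%, and that of Loxl3 19.3 ± 2.78% and 5.68 ± 0.89%. These shares are parts of a whole, so the low shares of Loxl1 and Loxl3 in nlsYAP5SA samples stand beside CPM levels that were higher or within the control range. The fibulins summed to 31.5 ± 4.58 CPM in control and 40.0 ± 5.46 CPM in nlsYAP5SA samples with overlapping ranges.

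**Figure D3:**
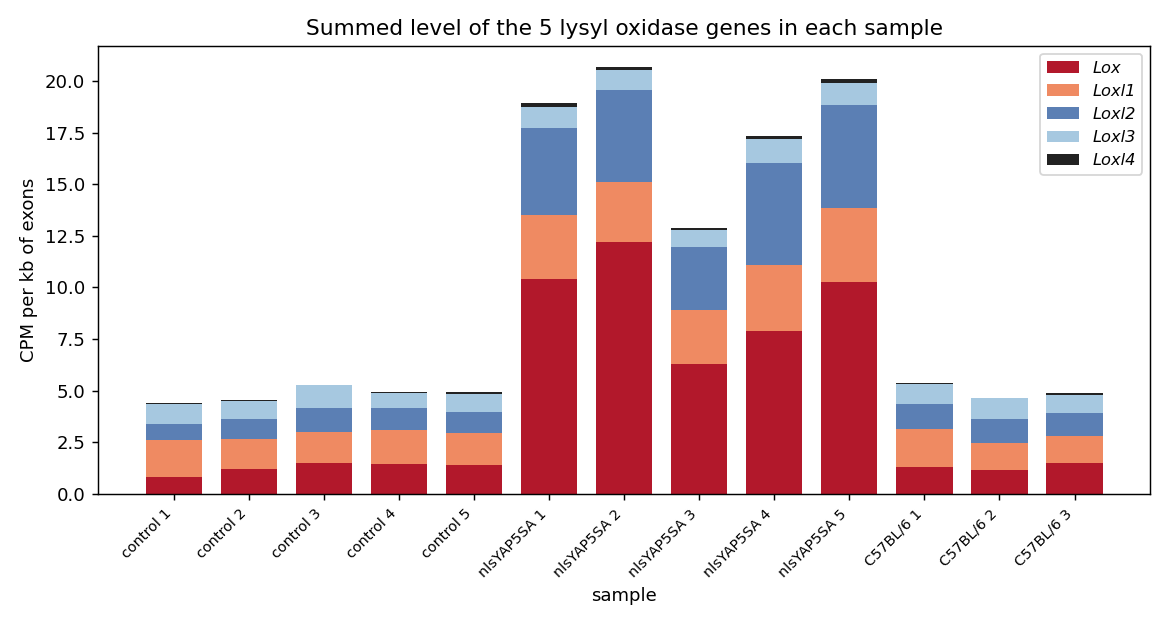
Stacked levels of the 5 lysyl oxidase genes in CPM per kb of exons (y axis, from 0) in each of the 13 samples (x axis), with 1 bar for each animal and 1 colour for each gene. Lox makes up 51.9% of the nlsYAP5SA bars on average and 26.1% of the control bars.

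The C57BL/6 animals were included as a background without either allele. Against control, 28 of 16546 genes were called in edgeR's test (0.169%), 3.78% had an unadjusted p of 0.05 or less and 59 were called with DESeq2. Of the 9 tested members, 0 were called in edgeR's test, 0 had an unadjusted p of 0.05 or less and 0 were called with DESeq2. The log2 fold change of highest size was that of Eln (0.23), followed by Loxl2 (0.22 ± 0.14 SE, unadjusted p = 0.161 in edgeR's quasi-likelihood test, the lowest of the 9). Those of Fbn1 (−0.04), Fbln1 (0.02), Fbln2 (0.11), Fbln5 (0.10), Lox (0.06), Loxl1 (−0.09) and Loxl3 (0.04) were within 0.11 of 0. For Loxl4, which was not tested by the fit, the exact permutation test on log2(CPM + 0.5) gave p = 0.429. In simulated counts with these 3 and 5 animals, 34.3% of genes changed 1.5-fold and 74.2% of those changed 2-fold were called in the right direction.

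Against C57BL/6, which shares its nlsYAP5SA samples with the comparison above, 4 of the 9 members other than Loxl4 were called and all were higher, where 1061 of 16641 genes tested were called (6.38%), 692 of them higher (4.16%). Lox had a log2 fold change of 2.82 ± 0.22 (SE, adjusted p = 0.000134 in edgeR's quasi-likelihood F-test, Benjamini-Hochberg adjusted), beside 2.89 against control. Loxl2 had 1.90 ± 0.17 (edgeR adjusted p = 0.00024), beside 2.13 against control. For Loxl1 it was 1.03 ± 0.15 (edgeR adjusted p = 0.00341), beside 0.94, and for Fbn1 0.99 ± 0.21 (edgeR adjusted p = 0.0239), beside 0.96. The Fbn1 call was lost in 7 of 19 alternatives. Its value was 0.93 with the Y-linked covariate (edgeR adjusted p = 0.0535), 0.99, 0.93 or 0.93 without nlsYAP5SA replicate 1, 2 or 5 (edgeR adjusted p = 0.0502, 0.0552 or 0.0561), and 0.89 without C57BL/6 replicate 1 or 2 (edgeR adjusted p = 0.101 or 0.0804). In a fit of replicates 1 to 3 alone with a block for the replicate number, which changed the samples and the model together, Fbn1 (0.90, edgeR adjusted p = 0.353), Lox (2.81, edgeR adjusted p = 0.052) and Loxl1 (0.95, edgeR adjusted p = 0.101) lost their calls, for Lox and Loxl1 the only such loss in 19 alternatives.

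The other 5 of the 9 were not called against C57BL/6. Fbln5 had a log2 fold change of 0.54 (edgeR adjusted p = 0.0583) and Eln 0.50 (edgeR adjusted p = 0.16). Loxl4 passed the filter on low counts here only through its nlsYAP5SA samples, so its square in the figure is not taken as a test. Fbln5 was called in 4 of 19 alternatives, with an adjusted p of 0.0108 in DESeq2 and, in edgeR, 0.0381 when scaled by library size alone, 0.0419 with no filter and 0.01 without nlsYAP5SA replicate 3. The values of Fbln1 (0.05), Fbln2 (0.02) and Loxl3 (0.06) were close to 0, as they were against control.

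Other genes of elastic fibres and microfibrils showed both directions. Of 21 listed, 20 were tested against control, and 6 were called higher and 2 lower in nlsYAP5SA, with a median log2 fold change of 0.07. Ltbp2, a microfibril protein that resembles the latent TGF-beta binding proteins without binding TGF-beta, rose from 0.449 ± 0.0691 to 16.2 ± 5.02 CPM, for a log2 fold change of 5.16 (adjusted p = 2.89e-07 in edgeR's quasi-likelihood F-test, Benjamini-Hochberg adjusted). Ltbp2 had 10 to 12 counts in a control sample and 208 to 467 in an nlsYAP5SA sample. It passed the filter on low counts only through its nlsYAP5SA samples, so its call, counted among the 6, is not taken as a test. Efemp1, also called fibulin-3, rose from 4.81 ± 0.908 to 14.6 ± 1.95 CPM, for a log2 fold change of 1.602 (edgeR adjusted p = 1.19e-05). The elastin interface protein gene Emilin2 rose from 1.80 ± 0.168 to 4.85 ± 0.667 CPM, by 1.42 (edgeR adjusted p = 2e-05). Adamtsl4, whose product binds fibrillin-1, rose from 1.15 ± 0.217 to 2.92 ± 0.417 CPM, by 1.33 (edgeR adjusted p = 0.000295). Efemp1, Emilin2 and Adamtsl4 were also called in all 22 alternatives, the Y-linked covariate and the samples with Y-linked RNA alone among them. Ltbp2 was called in these as well, with the limit given above. No other gene of the list was called in either fit for Y-linked RNA.

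The remaining 4 calls of that list were less steady. Mfap5 (0.98, edgeR adjusted p = 0.0147) and Thsd4 (0.60, edgeR adjusted p = 0.02), both microfibril genes, rose, and their calls were lost in 2 and 5 of 22 alternatives. Adamtsl2 fell by 0.51 on the log2 scale (edgeR adjusted p = 0.00676) and Adamts10 fell by 0.38 (edgeR adjusted p = 0.0459), with calls lost in 2 and 15 of 22. Against C57BL/6 the list held 6 genes called higher and 2 called lower, but not the same ones, as Mfap5 and Adamts10 were not called there.

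Among 10 genes that process lysyl oxidases or supply their copper, 1 was called higher and 0 lower against control, with a median log2 fold change of 0.29. That gene was Pcolce, which encodes an enhancer of procollagen C-proteinase (0.43, edgeR adjusted p = 0.0355), and its call was lost in 11 of 22 alternatives, both fits for Y-linked RNA among them. Among 8 integrin genes for RGD-binding receptors, 7 were tested and Itgb5 alone was called, rising by 0.39 (edgeR adjusted p = 0.00397), though not in either fit for Y-linked RNA. As 10.8% of all genes tested were called, 1 call in a list of such a size is near that share.

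The collagens, which share lysyl oxidases with elastin, were represented by 13 genes of the fibrillar and type IV classes, of which 5 were called higher and 1 lower, with a median of 0.23. Col11a1 rose from 10.1 ± 1.88 to 32.9 ± 6.43 CPM, for a log2 fold change of 1.70 (adjusted p = 2.33e-05 in edgeR's quasi-likelihood F-test, Benjamini-Hochberg adjusted). Col5a3 rose by 1.54 (edgeR adjusted p = 0.000614), Col2a1 by 1.52 (edgeR adjusted p = 0.0041), Col5a2 by 1.17 (edgeR adjusted p = 0.000951) and Col1a2 by 0.62 (edgeR adjusted p = 0.0214). Col11a2 fell by 0.46 (edgeR adjusted p = 0.0391), a call lost in 12 of 22 alternatives, and that of Col1a2 was lost in 6. With the Y-linked covariate Col5a2, Col5a3 and Col11a1 were called, and among samples with Y-linked RNA alone Col11a1 was. Against C57BL/6, 4 of the 13 were called higher and 2 lower, with a median of 0.03.

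Proteases that cut elastin and the TIMPs that inhibit matrix metalloproteinases were listed as well. Of 13, Mmp7 and Elane were at 0 in all samples and Mmp12 was not tested, and 7 of the 10 tested were called higher and 0 lower, with a median of 0.36. Cathepsin S (Ctss), an elastin-cutting protease of microglia and macrophages, rose from 26.6 ± 2.13 to 95.0 ± 13.4 CPM, for a log2 fold change of 1.84 (adjusted p = 3.12e-07 in edgeR's quasi-likelihood F-test, Benjamini-Hochberg adjusted). Timp3, a TIMP that binds to the matrix, rose from 120.3 to 227 CPM, by 0.92 (edgeR adjusted p = 1.66e-05). Timp1 rose by 1.71 (edgeR adjusted p = 0.00494), Mmp2 by 0.39 (edgeR adjusted p = 0.0319), Timp2 by 0.33 (edgeR adjusted p = 0.000561), Mmp14 by 0.28 (edgeR adjusted p = 0.049) and Ctsl by 0.21 (edgeR adjusted p = 0.0171). Timp1 had 6 to 15 counts in a control sample and 14 to 35 in an nlsYAP5SA sample. It passed the filter on low counts only through its nlsYAP5SA samples, so its call is not taken as a test. The 7 called, the 10 tested and their median all include Timp1. The calls of Mmp14, Mmp2 and Ctsl were lost in 17, 10 and 7 of 22 alternatives. Of the 7, Ctss, Timp2 and Timp3 were called with the Y-linked covariate, and Ctss and Timp3 among samples with Y-linked RNA alone. Against C57BL/6, 3 of the 10 were called higher. In C57BL/6 against control, 0 of the 60 tested genes of these 5 lists were called by edgeR, 5 had an unadjusted p of 0.05 or less and 0 were called by DESeq2.

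Markers of the cell types in a hemisphere were read in the same libraries, since elastic fibre genes are expressed mainly by cells of vessel walls and meninges. No marker was at 0 in all samples. Of 9 fibroblast and meningeal markers, 3 were called higher (Ogn, Aldh1a2 and Col1a2) and 1 lower (Lum), with a median log2 fold change of 0.19. With the Y-linked covariate, and among samples with Y-linked RNA alone, only Ogn and Aldh1a2 stayed called. Their summed level was 346, 358, 442, 485 and 468 CPM in control replicates 1 to 5, 465, 518, 339, 489 and 525 CPM in nlsYAP5SA replicates 1 to 5, and 496, 436 and 415 CPM in C57BL/6 replicates 1 to 3, with Igf2 the most abundant gene. Control replicates 1 and 2 and nlsYAP5SA replicate 3 were thus the lowest for these markers, and they were also low for Eln or Fbln5, while the groups overlapped.

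Smooth muscle and pericyte markers split, with 3 of 9 called higher (Cnn1, Acta2 and Tagln) and 3 lower (Rgs5, Kcnj8 and Vtn) and a median of −0.02. Cnn1 had 4 to 13 counts in a control sample and 48 to 69 in an nlsYAP5SA sample. It passed the filter on low counts only through its nlsYAP5SA samples, so its call, counted among the 3, is not taken as a test. Apart from Cnn1, Acta2, Tagln and Vtn stayed called with the Y-linked covariate, and Tagln and Vtn among samples with Y-linked RNA alone. The sum of the 9 markers was 306, 350.3, 377, 376 and 371 CPM in control replicates 1 to 5, 254, 324, 221, 331 and 314 CPM in nlsYAP5SA replicates 1 to 5, and 398, 366 and 357 CPM in C57BL/6 replicates 1 to 3, with Rgs5 the most abundant. Here nlsYAP5SA replicates 1 and 3 were below all controls. Of 10 endothelial markers, 0 were called higher and 3 lower (Cldn5, Cdh5 and Tie1), with a median of −0.29 and sums of 244, 244, 282, 286 and 285 CPM in control, 228, 272, 212, 242 and 261 CPM in nlsYAP5SA, and 284, 271 and 268 CPM in C57BL/6 replicates, led by Kdr. The endothelial sums overlapped between nlsYAP5SA and control. Only Cldn5 stayed called with the Y-linked covariate, and it lost its call too among samples with Y-linked RNA alone. The call of Cdh5 was lost in 8 of 22 alternatives. Against C57BL/6, 0 of the 10 were called, with a median of −0.32.

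Of 8 astrocyte markers, 4 were called higher (Gfap, Slc1a3, Gja1 and Aldoc) and 0 lower, with a median of 0.34. They summed to 3269, 3789, 5732, 4977 and 5104 CPM in control replicates 1 to 5, 5626, 7175, 5670.0, 5132 and 6571 CPM in nlsYAP5SA replicates 1 to 5, and 4366, 4480.0 and 5821 CPM in C57BL/6 replicates 1 to 3, with Slc1a2 the most abundant. Control replicates 1 and 2 were again the lowest. Gfap, the intermediate filament gene of reactive astrocytes, rose from 181 ± 8.51 to 754 ± 73.5 CPM, by 2.06 on the log2 scale, and was called in all 22 alternatives. It was the only astrocyte marker that stayed called in either fit for Y-linked RNA, and Slc1a3, Gja1 and Aldoc lost their calls in 8, 8 and 14 of the 22.

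Of 8 microglial markers, 6 were called higher and 0 lower, with a median of 0.68. Their sums were 315, 309.9, 342, 388 and 363 CPM in control, 500.0, 518, 426, 533 and 561 CPM in nlsYAP5SA, and 350, 382 and 325 CPM in C57BL/6 replicates. All nlsYAP5SA sums lay above the rest, with replicate 3 the lowest of them, as for 8 of the 10 members. With the Y-linked covariate 5 of these markers stayed called, and 3 among samples with Y-linked RNA alone. Ependymal markers had 1 of 8 called higher (Foxj1, also the most abundant) and a median of 0.65, with sums of 28.5, 22.7, 17.1, 12.7 and 14.97 CPM in control, 31.3, 33.4, 30.03, 28.1 and 30.9 CPM in nlsYAP5SA, and 19.5, 18.7 and 23.2 CPM in C57BL/6 replicates. The nlsYAP5SA sums were close to each other, and control replicates 1 and 2 were the highest of their group. Foxj1 lost its call in both fits for Y-linked RNA. All 8 ependymal markers had a higher mean in nlsYAP5SA than in control. The same held against C57BL/6, where 1 was called higher and the median was 0.43.

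Choroid plexus markers, led by Ttr, varied widely within each group. Of 8, 1 was called higher (Folr1) and 0 lower, and the sums were 235, 10.6, 10.2, 13.2 and 146 CPM in control, 284, 310.3, 160, 13.2 and 73.2 CPM in nlsYAP5SA, and 10.9, 173 and 267 CPM in C57BL/6 replicates, with a median log2 fold change of 0.94. Each group held samples with much and with little of this tissue's RNA, and all 8 had a higher mean in nlsYAP5SA than in control. All 8 were higher in C57BL/6 than in control as well (median 0.63). Against C57BL/6, 5 of the 8 had a higher mean in nlsYAP5SA, with a median of 0.097 and 0 called. Folr1 rose from 0.936 ± 0.965 to 4.32 ± 0.908 CPM with ranges apart (2.20 on the log2 scale, edgeR adjusted p = 0.0133), and lost its call in both fits for Y-linked RNA. It had 4 to 59 counts in a control sample (median 11) and 66 to 119 in an nlsYAP5SA sample. As it passed the filter on low counts only through its nlsYAP5SA samples, its call is not taken as a test. Of 8 neuronal markers, 0 were called higher and 1 lower, with a median of −0.12 and sums of 5267, 5279, 5243, 5360.0 and 5135 CPM in control, 5160.0, 4725, 5132, 4709 and 4925 CPM in nlsYAP5SA, and 5372, 5104 and 5233 CPM in C57BL/6 replicates, led by Syt1. The neuronal gene called lower was Neurod6 (97.2 ± 7.61 to 49.2 ± 7.16 CPM), whose locus carries the Cre allele in nlsYAP5SA animals, and it stayed called in both of those fits. Beside the 10.8% of all genes that were called, 1 call among 8 ependymal, choroid plexus or neuronal markers is near that share.

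Over all genes tested in nlsYAP5SA against control, 24.4% had an unadjusted p of 0.05 or less in edgeR's test. DESeq2 called 2259 genes there, 895 of them lower. Of 8 oligodendrocyte markers, 0 were called against control by edgeR, 6 had an unadjusted p of 0.05 or less and 2 were called by DESeq2, with a median of −0.48. They summed to 2341, 2168, 3633, 3512 and 3385 CPM in control, 1799, 2997, 2361, 1392 and 2227 CPM in nlsYAP5SA, and 3109, 4850.0 and 3475 CPM in C57BL/6 replicates, led by Mbp. The nlsYAP5SA sums overlapped with those of control, but all lay below the C57BL/6 sums. Against C57BL/6, 3 of the 8 were called lower by edgeR and 6 by DESeq2, with a median of −0.91. All genes of that comparison held 369 called lower by edgeR (2.22% of 16641) and 644 by DESeq2. Of these cell types, only the choroid plexus entered a fit of the members, through the Ttr covariate, in which Eln lost its call against control and the other 5 called members kept theirs. The part of the other cell types was not tested.

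The members are scattered over the GRCm38 genome. Eln is at chr5:134702593-134747323 on the minus strand, Fbn1 at chr2:125300594-125507993 on the minus strand, Fbln1 at chr15:85205949-85286535 and Fbln2 at chr6:91212455-91272540, both on the plus strand, and Fbln5 at chr12:101746565-101819055 on the minus strand. Lox is at chr18:52516067-52529867 and Loxl1 at chr9:58287738-58313186, both on the minus strand, and Loxl2 is at chr14:69609068-69695834 on the plus strand. Loxl3 shares chromosome 6 with Fbln2, at chr6:83034173-83052562 on the plus strand, and Loxl4 is at chr19:42593982-42612813 on the minus strand. Some exons of members overlap those of other annotated genes, and since the sources used here do not state whether counting used the strand, reads in the shared bases could belong to either gene. The widest overlap was 2442 bases between Fbn1 and Gm9913 on the opposite strand, which stood at 0.0499 CPM in control, 0.138 CPM in nlsYAP5SA and 0.102 CPM in C57BL/6 samples. Loxl2 shared 301 bases with the antisense gene Gm27177, at 15.7 ± 3.30 CPM in control, 15.4 ± 1.26 CPM in nlsYAP5SA and 24.96 ± 10.2 CPM in C57BL/6 samples. Loxl3 shared 535 bases with Htra2, at 21.4 ± 3.73, 22.4 ± 2.40 and 20.91 ± 4.05 CPM in the same order, and Eln shared 267 bases with Gm30003, at 0.829, 1.26 and 0.756 CPM.

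After subtraction of each group's mean, the levels of some members followed these marker sums across the 13 samples. These correlations describe samples that share library depth and composition, and they carry no test. With the fibroblast and meningeal sum, Pearson's r was 0.93 for Fbln5, 0.89 for Loxl2, 0.83 for Fbln2, 0.78 for Lox, 0.73 for Eln and 0.66 for Fbn1, and it was 0.41 for Loxl1, 0.21 for Loxl3 and 0.14 for both Fbln1 and Loxl4 (n = 13). Loxl2 had its highest r with the smooth muscle and pericyte sum (0.91) and Fbn1 with the astrocyte sum (0.79). Other sums gave values as high or nearly so, such as 0.91 for Fbln5 with the microglial and 0.87 with the endothelial sum, 0.80 for Loxl2 with the endothelial sum and 0.79 for Lox with the astrocyte sum, so no single cell type is picked out by this measure. Negative values were found too, with −0.75 for Fbln5, −0.68 for Eln and −0.49 for Loxl2 with the ependymal sum and −0.52 for Loxl2 with the choroid plexus sum. Among the members themselves, the highest r was that of Fbln5 and Loxl2 (0.85), followed by Fbn1 and Lox (0.84) and Eln and Fbln5 (0.80), and the lowest was that of Fbn1 and Fbln1 (−0.17).

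By the same measure, the genes most like each member were looked up in the 14856 genes whose mean reached 1 CPM, with 3 named for each (n = 13 samples). For Eln they were Col6a2 (r = 0.93), Fmod (0.92) and Hspa9 (0.90). Those of Fbn1 were Lama5 (0.97), Npr3 (0.97) and Kdm5c (0.96), the last an X-linked gene known to escape X inactivation. Fbln5 was most like Podxl (0.98), Col1a1 (0.97) and Zfp710 (0.95). Fbln1 was most like Nf2 (0.89), Zfp316 (0.88) and Ppil4 (0.83), and Fbln2 most like Cdh5 (0.93), Trim25 (0.92) and Wasf2 (0.91). Lox was most like Col4a5 (0.94), Itih5 (0.94) and Dbt (0.93), and Loxl2 most like Zup1 (0.94), Lrrk1 (0.93) and Itgb1 (0.93). For Loxl1 the nearest were Adgrg1 (0.93), Sema5b (0.86) and Palld (0.85), and for Loxl3 Cyren (0.86), Gorab (0.86) and Proca1 (0.83). Loxl4, at its low counts, was most like Gm44644 (0.85), 4732496C06Rik (0.85) and Cntrob (0.84).

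Promoter sequence bears on members that moved together, so the window of 250 bases before the start of each transcript was searched in the RefSeq promoter table (GRCm38.p6). The table matched 5 of the 10 members (Fbn1, Fbln1, Fbln2, Fbln5 and Loxl4) with 7 windows. The core of the TEAD motif, GGAATG on either strand, was in 0 of the 7 windows and in 12.6% of 32536 distinct windows of all genes. No match says only that these letters are not in the window. The GC box, GGGCGG on either strand and a common promoter element, was in 5 of the 7 and in 33.0% of all windows. Fbln5 and Loxl4 are printed because their transcripts were higher in nlsYAP5SA samples and their windows lie before annotated exons, with GC boxes in capitals, read 5′ to 3′ on the minus strand of each gene. The Fbln5 sequence is chr12:101819120-101819369 (250 bases, 65.2% G or C, 2 GC boxes) and the Loxl4 sequence chr19:42612814-42613056 (243 bases, 75.7% G or C, 3 GC boxes).
Fbln5: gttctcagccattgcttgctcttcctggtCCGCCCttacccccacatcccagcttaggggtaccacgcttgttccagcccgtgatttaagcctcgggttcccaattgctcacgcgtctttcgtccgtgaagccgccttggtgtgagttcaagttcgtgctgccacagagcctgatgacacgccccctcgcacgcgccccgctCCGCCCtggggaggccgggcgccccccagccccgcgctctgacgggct
Loxl4: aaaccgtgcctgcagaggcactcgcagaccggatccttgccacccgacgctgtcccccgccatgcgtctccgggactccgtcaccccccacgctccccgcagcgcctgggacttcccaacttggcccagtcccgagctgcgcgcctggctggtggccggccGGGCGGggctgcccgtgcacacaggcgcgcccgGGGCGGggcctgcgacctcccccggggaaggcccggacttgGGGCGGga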

How the data were processed

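RNA of 13 right hemispheres, each from a separate animal, was analysed. The authors deposited expected counts per gene, estimated with RSEM 1.3.0 after adapter trimming with cutadapt 1.5 and mapping with STAR to GRCm38 and its Ensembl transcripts. The counts were rounded to whole numbers. Symbols, positions and exon lengths came from GENCODE M21 on GRCm38, a later annotation release, which matched 48349 of 48795 genes. In R 4.3.3, genes were filtered with edgeR 4.0.16 (filterByExpr, minimum count 10, minimum total 15), scaled by TMM and tested with its quasi-likelihood test over all genes, with an adjusted p of 0.05 or less as a call and each comparison fitted on its own samples. DESeq2 1.42.0 served as an alternative, beside other filters, scalings, covariates and samples left out. Levels were CPM over all 13 samples, and a pseudocount of 0.5 was added before logarithms. Python 3.11.15 was used for summaries and figures. The fits were tested on simulated data. The members and lists were chosen with earlier results of these data known. Genes named were the 10 members, Yap1, listed genes called in nlsYAP5SA against control, the 3 genes most like each member, the most abundant marker of each cell type (apart from an item not reported here) and genes that overlap a member.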

Additional observations from a re-analysis of the deposited data

How the results depend on the processing

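Depth limited Loxl4, at 1 to 19 counts a sample, and each comparison with C57BL/6 rests on 3 animals of that group. Sex was not recorded, litters were not given, and Y-linked RNA differed between the groups, so sex and transgene cannot be fully told apart for Eln, Fbn1 and Fbln5, nor for Loxl4, which no fit for Y-linked RNA tested against control. Under all alternatives run, Lox, Loxl1 and Loxl2 stayed called in nlsYAP5SA against control, no called value changed its direction, and scaling moved the median of all genes by less than 0.1. Where a call or count changed, the cause was not tested, except that fewer samples enter some fits.

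In nlsYAP5SA against control, 6 members were called, and 3 with the Y-linked covariate, 3 among samples with Y-linked RNA alone (chosen after the data were seen) and 4 to 7 when any 1 sample was left out with Loxl4 counted. Loxl4 passed the filter only through its nlsYAP5SA counts, in the fits without any 1 control or nlsYAP5SA replicate 3. Of the 6 themselves, 4 stayed called without control replicate 2 or nlsYAP5SA replicate 1, 2 or 5, 5 without control replicate 1 or nlsYAP5SA replicate 4, and all without the others. Of all genes, 1761 were called (68.1% higher), against 554 with the Y-linked covariate (87.7% higher), 334 among samples with Y-linked RNA alone (92.2% higher), 3082 with an ordinary loess offset for GC content and length (42.7% higher), 2482 with the robust loess (60.7% higher) and 1210 to 1891 with 1 sample left out.

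In C57BL/6 against control, 28 genes were called, against 16 with at least 10 counts in every sample, 59 with DESeq2, 44 when all 13 samples were fitted together and 19 to 27 with 1 sample left out, and 0 members in each of these fits. In nlsYAP5SA against C57BL/6, 4 members were called, and 3 to 5 with 1 sample left out (5 without nlsYAP5SA replicate 3, with Fbln5, and without C57BL/6 replicate 3, with Loxl4 at its low counts). Loxl4 passed the filter there only through its nlsYAP5SA samples, so its call is not taken as a test. Of all genes, 1061 were called (65.2% higher), against 1596 with DESeq2, 1941 with the ordinary loess (46.4% higher), 1698 with the robust loess and 401 to 1757 with 1 sample left out (401 without C57BL/6 replicate 1, 1757 without C57BL/6 replicate 3).

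Samples with the same replicate number were alike in some cases and not in others. The control of the same number was the best match of nlsYAP5SA replicates 1 and 5 and of C57BL/6 replicates 1 and 3, but not of the others. Deviations of nlsYAP5SA and control samples with the same number correlated at 0.36, −0.20, −0.38, −0.12 and 0.15, and those of C57BL/6 and control at 0.15, −0.01 and 0.55. With the replicate number as a replicate block, 5 members and 1239 genes were called in nlsYAP5SA against control. With C57BL/6 that fit held replicates 1 to 3 alone, so fewer samples and the block came together, and 15 genes were called in C57BL/6 against control, and 1 member and 26 genes in nlsYAP5SA against C57BL/6. Eln lost its call against control at a log2 fold change of 0.77 (0.74 without the block), and Fbn1 (0.90 and 0.99), Lox (2.81 and 2.82) and Loxl1 (0.95 and 1.03) lost theirs against C57BL/6.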
